A study of Arabidopsis thaliana with 36 samples.

Results

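A set of 143 genes of Arabidopsis thaliana had less mRNA after 1 h of flg22 in wild-type (WT) seedlings and was back near or above its untreated level at 2 h. They were chosen from 32678 annotated genes by wild-type values alone. A gene had to average at least 5 CPM (counts scaled to a common library total, from the plain column sum) in untreated WT, to be lower at 1 h by at least 1 log2 unit, and to be no more than 0.5 log2 units below its untreated mean at 2 h, with 1 CPM added to each mean. Of 14938 genes above the minimum, 1893 were lower by that much at 1 h. Of these, 1750 stayed lower at 2 h and the other 143 came back, so the rule's limit of 150 genes was not reached. All 143 had enough counts to be tested, and 142 are annotated as protein-coding. The WT values below therefore describe how the genes were picked and carry no test. The 3 mutants, which the rule did not use, are what was tested.

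The seedlings were 12 days old and had grown in long days in MS medium with sucrose and the antibiotic claforan. The 4 genotypes were the wrky18 wrky40 double mutant, the wrky40 and wrky18 single mutants, and Col-0 WT. Each genotype was sampled untreated (0 h), and 1 h and 2 h after its medium was exchanged for medium with 1 µM flg22. The 12 groups had 3 biological replicates each, 36 libraries in all. The labels do not name the mutant alleles. The untreated seedlings had no medium change, so flg22, the exchange of medium and the passing of time cannot be told apart. RNA came from pooled whole seedlings, in which fewer cells of a type and less RNA per cell cannot be told apart.

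As background, the flagellin fragment flg22 binds the receptor kinase FLS2 at the plant cell surface and sets off a fast wave of defence gene expression. WRKY18, WRKY40 and their close relative WRKY60 are transcription factors that bind W-box DNA and mostly restrain parts of that wave. Plants low in phosphate release a starvation programme that SPX proteins, which sense the phosphate state, otherwise hold back, and heat activates HSF transcription factors that switch on chaperones.

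Libraries held 17287229 to 38709715 counts. Levels are given below as CPM scaled by the trimmed mean of M-values (TMM), and changes as log2 fold changes with their standard error (SE) from edgeR's quasi-likelihood test, called at a Benjamini-Hochberg adjusted p under 0.05 over all 21356 genes tested. TMM scaling moved the changes of all genes at 1 h or 2 h against 0 h upward by 0.215 to 0.265 log2 units relative to plain library totals, which the rule used, so the falls below are smaller than 1 log2 unit for many genes. The leaf marker RBCS1A, the small subunit of Rubisco, ran between 7370 and 17000 CPM over the 36 libraries. The root markers BGLU23 and CASP1 had medians of 1750 and 10.2 CPM, and 6 flower, pollen and seed genes had medians of at most 0.704 CPM.

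The mutated genes were read first as a check of the labels. WRKY40 averaged 25.5 CPM at 1 h in wrky18 wrky40 and 25.2 CPM in wrky40, against 282 CPM in wrky18 and 223 CPM in WT. WRKY18 averaged 52.3 CPM at 1 h in wrky18 wrky40 and 28.1 CPM in wrky18, against 312 CPM in wrky40 and 125 CPM in WT. Some WRKY18 mRNA was thus read in both of its mutants, and more in wrky18 wrky40 than in wrky18 at all 3 times by the test. Both also had next to no reads of the neighbouring gene AT4G31805, with sums over 3 libraries of 0, 0 and 1 counts at 0, 1 and 2 h in wrky18 wrky40 and 1, 0 and 0 in wrky18. The sums were 519, 289 and 250 in wrky40 and 514, 255 and 281 in WT. The next gene, AT4G31810, was lower in both mutants too, at 18.9, 17.5 and 15.8 CPM in wrky18 wrky40 and 19.9, 19.6 and 15.4 CPM in wrky18, against 27.3, 29.0 and 26.4 CPM in wrky40. Effects of WRKY18 and of these neighbours cannot be told apart here. One of the 143 genes, ENP, lies close by and was not called between any 2 mutants.

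The dip was present in all 3 mutants. At 1 h against 0 h, 140 of the 143 genes fell in wrky18 wrky40, where 32.7% of all tested genes fell. In wrky40 141 fell, against 32.2% of all genes, and in wrky18 138 fell, against 32.0%. No member rose in any of the 3, where 30.1%, 29.9% and 28.3% of all genes rose in wrky18 wrky40, wrky40 and wrky18. The median change was -0.955 in wrky18 wrky40, -0.992 in wrky40 and -0.988 in wrky18, beside -1.03 in WT, and the medians of all genes lay between -0.0521 and -0.0376. The fall was not particular to the members. Of the 1750 genes that stayed lower in WT, 98.7%, 99.1% and 99.0% fell in wrky18 wrky40, wrky40 and wrky18. Their medians were -1.25, -1.34 and -1.24. Altogether 136 genes fell in all 3 mutants, and 1 gene fell in none of them, AT1G29090, a member of the cysteine proteinase family.

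The return at 2 h passed the test in fewer genes in the double mutant than in either single mutant. The rule kept genes for their 2 h level in WT, so the order of the mutants in these counts is no independent result. Between 1 h and 2 h, 122 of the 143 genes rose in wrky18 wrky40, against 24.8% of all genes, and 1 fell, against 23.0%. In wrky40 137 rose, against 27.1% of all genes, and none fell, against 24.9%. In wrky18 all 143 rose, against 28.7% of all genes, of which 25.8% fell. The median rise was 0.935 log2 units in wrky18 wrky40, 1.09 in wrky40 and 1.14 in wrky18, beside 1.2 in WT. The 1750 genes that stayed lower in WT had medians over the same hour of -0.219, -0.107 and -0.185 in wrky18 wrky40, wrky40 and wrky18. In all 3 mutants 117 genes both fell and rose.

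At 2 h against 0 h the members were spread around their starting level. In wrky18 wrky40 44 were higher and 43 lower, against 36.3% and 36.2% of all genes. In wrky40 50 were higher and 30 lower, against 37.2% and 36.1%, and in wrky18 51 were higher and 21 lower, against 36.8% and 36.5%. These shares are near those of all genes, except that fewer members were lower in the single mutants. In all 3 mutants 33 genes ended higher and 13 lower. A further 18 were lower at 2 h than at 0 h in the double mutant and in neither single mutant by the test, among them HSFA2, HSP101, Hsp70-2, Hop3 and PPC1. For counts of genes that combine calls from several comparisons, here and in the other paragraphs, the share of all genes was not computed. The rule kept only genes near or above their untreated level at 2 h in WT, so these directions are no independent result.

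**Figure D1:**
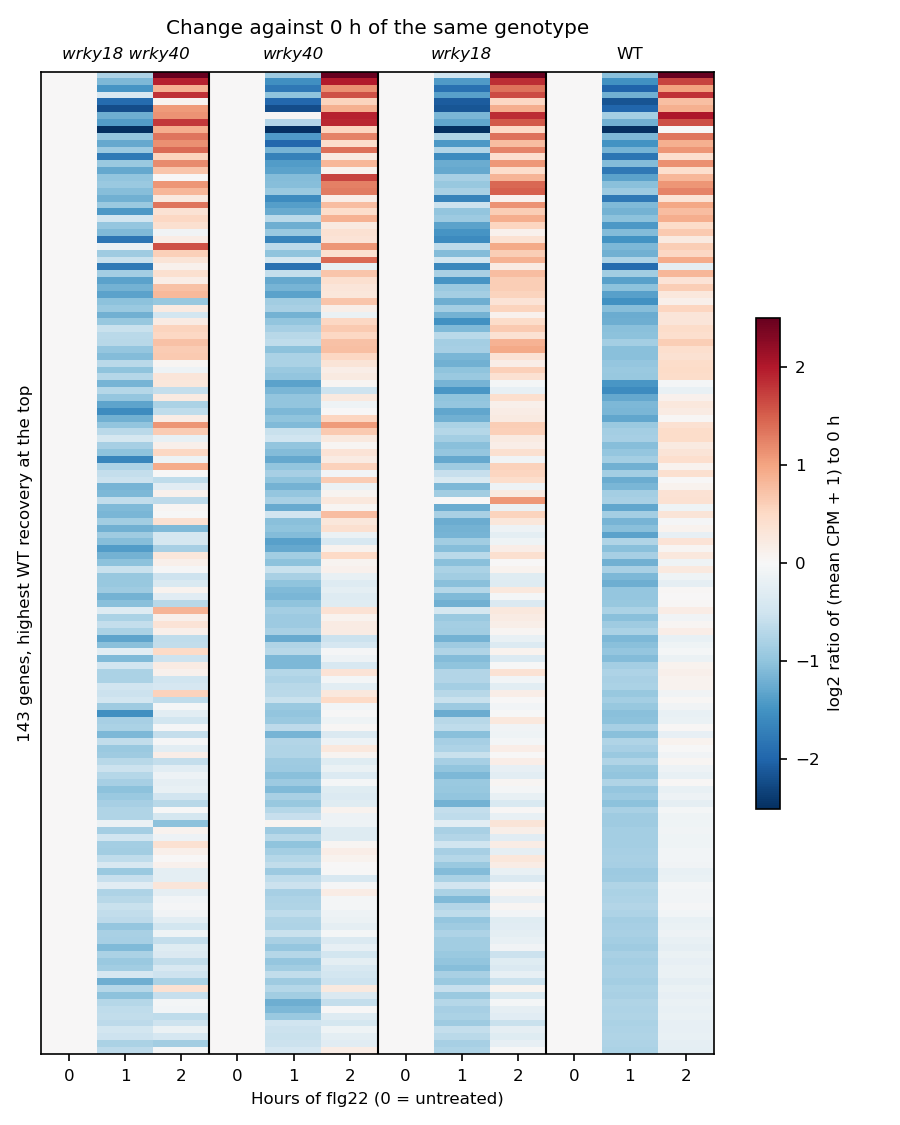
Changes of the 143 genes in each genotype, on the log2 scale relative to that genotype's untreated mean, 1 row per gene. Low values at 1 h run through all 4 genotypes, with WT the genotype that chose the genes. At 2 h the values spread around 0. In wrky18 wrky40, wrky40 and wrky18, 43, 30 and 21 genes were called lower than at 0 h and 44, 50 and 51 higher. Of all genes 36.2%, 36.1% and 36.5% were lower and 36.3%, 37.2% and 36.8% higher. The medians of the change from 0 h to 2 h, from edgeR, were 0.000185 in wrky18 wrky40, 0.0847 in wrky40, 0.154 in wrky18 and 0.0477 in WT.

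The rule itself can be set on each mutant. Of the 143 genes, 65 met all 3 thresholds in wrky18 wrky40, 80 in wrky40 and 90 in wrky18. That is 45.5%, 55.9% and 62.9% of the members, against 0.683%, 0.774% and 0.801% of the genes above the minimum in wrky18 wrky40, wrky40 and wrky18. With TMM-scaled CPM in place of plain CPM, 36, 51 and 53 met them. The level at 2 h was too low for 52 members in wrky18 wrky40, 33 in wrky40 and 24 in wrky18, and the fall at 1 h was too small for 39, 37 and 31. All members pass in WT by the choice of genes, so the order of the mutants here carries that choice. In all 3 mutants 45 genes met the thresholds, and 27 met them in none. At the edges, ORA59 was just above the minimum with 5.09 CPM and NUDT8 just below it with 4.9 CPM. VOZ1 passed the fall with -1.001 and LBD38 missed it with -0.998. CIPK15 passed the 2 h level with -0.499, while AT4G08035 missed it by less than 0.001.

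The steepest dip belonged to a phosphate gene. PHT1;4, which imports phosphate, SPX1 and SPX2, which sense it, G3Pp1, a glycerol-3-phosphate permease, SRG3, a glycerophosphodiester phosphodiesterase, and PPCK1, a kinase of phosphoenolpyruvate carboxylase, are 6 of the 143. All 6 fell and rose in all 3 mutants. G3Pp1 (AT3G47420, chromosome 3, 17472297 to 17475274) had the steepest fall of all members in each mutant. It held 59.9, 61.1 and 75.6 CPM at 0 h, 8.97, 10.4 and 8.86 CPM at 1 h and 132, 114 and 126 CPM at 2 h in wrky18 wrky40. In wrky40 it held 108, 90.2 and 111 CPM, then 13, 14 and 13.1 CPM, then 155, 133 and 160 CPM. The 3 times did not overlap in either genotype. It fell by 2.80 ± 0.17 in wrky18 wrky40 and 2.95 ± 0.17 in wrky40 (log2, SE), and by 2.73 ± 0.17 in wrky18, with 3 libraries per group.

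SPX1 (AT5G20150, chromosome 5, 6802282 to 6803655) had 43.9, 53 and 51.8 CPM at 0 h, 8.86, 10.8 and 10.1 CPM at 1 h and 93.5, 128 and 93.5 CPM at 2 h in wrky18 wrky40. In wrky18 it had 53.7, 52.2 and 68.7 CPM, then 10.9, 14.3 and 12.3 CPM, then 91.2, 107 and 134 CPM. Each time was apart from the others, and the 2 genotypes overlapped at 0 h and 2 h. SPX1 rose between 1 h and 2 h by 3.41 log2 units in wrky18 wrky40, 3.19 in wrky40 and 3.15 in wrky18, and was not called between mutants at any time. SPX2 fell by 1.07, 1.15 and 1.03 in the same order and ended above its untreated level in all 3, by 0.53, 0.35 and 0.41.

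PHT1;4 (AT2G38940, chromosome 2, 16257157 to 16260253) had a lower level at 2 h in the double mutant than in both single mutants. Its 3 wrky18 wrky40 libraries held 9.84, 13.2 and 13.2 CPM at 1 h and 67.5, 61.3 and 66.3 CPM at 2 h. The wrky40 libraries held 14.1, 14.3 and 18.2 CPM, then 114, 127 and 138 CPM, and the wrky18 libraries 13.8, 15.1 and 14.2 CPM, then 141, 123 and 163 CPM. WT had 133, 106 and 114 CPM at 2 h. All 3 double mutant libraries lay below every other library at 2 h. The WT libraries were used to choose the gene, so the place of WT carries that choice. The difference at 2 h was -0.96 ± 0.16 against wrky40 (adjusted p = 0.00057) and -1.13 ± 0.16 against wrky18 (adjusted p = 1.8e-05). PHT1;4 was already lower at 0 h, by 0.67 log2 units against wrky40 and 0.64 against wrky18, and each of those calls was lost without any of 5 of the 6 libraries compared (adjusted p up to 0.17). Its change between 1 h and 2 h was not called as different between the mutants, and it ended above its untreated level in all 3.

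The gene lists used here for phosphate, sulphur, jasmonate, abscisic acid receptors, and HSP70 with its co-chaperones were assembled after values of these genes had been seen, so their counts are descriptions. In the 30 tested genes of the phosphate starvation list, 18 fell and 4 rose at 1 h in wrky18 wrky40, 19 fell and 3 rose in wrky40, and 18 fell and 2 rose in wrky18. Of all genes 32.7%, 32.2% and 32.0% fell and 30.1%, 29.9% and 28.3% rose. Between 1 h and 2 h 10 rose and 8 fell in wrky18 wrky40, 13 and 6 in wrky40, and 12 and 5 in wrky18, where 24.8%, 27.1% and 28.7% of all genes rose and 23.0%, 24.9% and 25.8% fell. At 0 h, 7 of the 30 were lower in wrky18 wrky40 than in wrky40 and 1 was lower than in wrky18, where 0.89% and 0.454% of all genes were lower. The 7 include G3Pp1, with a difference of -0.65 ± 0.15 (adjusted p = 0.021), and SRG3, with -0.89 ± 0.20 (adjusted p = 0.02). SRG3 spread widely in untreated wrky40, at 34.4, 60.1 and 80.4 CPM, against 24.1, 30 and 39.9 CPM in wrky18 wrky40, which overlap. SRG3 also shares 681 bases with AT3G02030 on the other strand, and whether counting used the strand is not given in the sources used here.

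The promoters of 3 of these genes are shown because each holds a motif tied to phosphate or to the clock: the P1BS letters GNATATNC, the site of phosphate starvation factors, or the core of the evening element, AATATCT, known from evening-phased clock genes. Each is the 250 bases before the annotated gene start, read 5′ to 3′ on the gene's strand from the RefSeq annotation of TAIR10.1, with the motif or its reverse complement in capitals. PHT1;4 lies at chr2:16256907-16257156 (plus strand), SPX1 at chr5:6802032-6802281 (plus strand) and SRG3 at chr3:350011-350260 (minus strand).
PHT1;4: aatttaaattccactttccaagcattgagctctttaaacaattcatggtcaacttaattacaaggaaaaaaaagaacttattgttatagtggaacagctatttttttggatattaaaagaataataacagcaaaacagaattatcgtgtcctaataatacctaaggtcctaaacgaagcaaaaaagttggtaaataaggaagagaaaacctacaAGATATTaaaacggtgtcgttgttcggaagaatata
SPX1: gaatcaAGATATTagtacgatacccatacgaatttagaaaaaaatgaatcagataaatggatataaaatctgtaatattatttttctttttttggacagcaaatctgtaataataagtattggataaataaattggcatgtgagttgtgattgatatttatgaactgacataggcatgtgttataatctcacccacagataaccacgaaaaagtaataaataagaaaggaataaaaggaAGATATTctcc
SRG3: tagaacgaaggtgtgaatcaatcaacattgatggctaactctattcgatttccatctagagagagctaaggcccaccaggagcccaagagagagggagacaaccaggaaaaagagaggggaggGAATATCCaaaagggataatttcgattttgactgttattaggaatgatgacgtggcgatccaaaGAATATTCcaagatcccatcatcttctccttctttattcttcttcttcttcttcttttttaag
PHT1;4 has 1 evening element core, SPX1 has 2, and SRG3 has 2 P1BS matches. The promoter of PPCK1 holds both motifs and is not shown. PHT1;4 also holds the W-box letters TTGACC and SRG3 holds TTGACT, which are not in capitals.

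Over 142 members with a promoter, the evening element core was present in 24, or 16.9%, against 9.94% of the genes that stayed lower and 10.1% of all 26706 promoters, searched on both strands. P1BS was present in 9 members, 6.34%, against 5.84% of the genes that stayed lower and 5.44% of all promoters. The W-box letters TTGACC were in 12.0% of members, 8.61% of the genes that stayed lower and 12.2% of all promoters, and TTGACT in 17.6%, 15.4% and 19.1%. The telo box AAACCCT, frequent in genes of the translation machinery, was in 2.11% of members, 4.22% of the genes that stayed lower and 7.28% of all promoters. The P1BS letters and the heat shock element of 3 units were added to the search after values had been seen. A match is a run of letters and not a bound site.

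**Figure D2:**
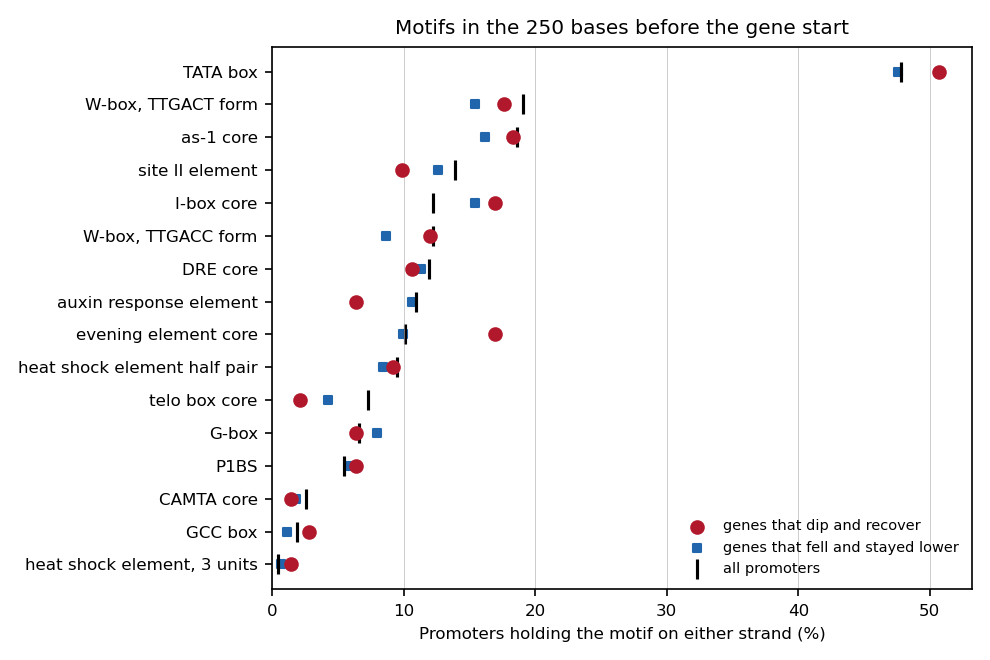
Share of 250-base promoters that hold each motif, for the members, the genes that stayed lower at 2 h and all promoters, on a linear axis in percent. The evening element core stands at 16.9% of members beside 10.1% of all promoters, the widest gap upward among these motifs, and the W-box letters lie near the share of all promoters.

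Of the sulphur genes, SOT17 and LSU2 ended far above their untreated level. SOT17, a sulfotransferase that finishes the glucosinolate core, LSU2, a marker of low sulphur, and APR2, which reduces activated sulphate, fell at 1 h and rose at 2 h in all 3 mutants. SOT17 (AT1G18590, chromosome 1, 6398531 to 6400029) had 31.5, 35.1 and 32.6 CPM, then 14.6, 15.6 and 13.6 CPM, then 149, 108 and 127 CPM at 0, 1 and 2 h in wrky18 wrky40. In wrky40 it had 37.1, 38.2 and 28.3 CPM, then 9.75, 11.9 and 12.4 CPM, then 121, 156 and 141 CPM. The times were fully apart in both. It ended above its untreated level by 1.95 ± 0.14 in wrky18 wrky40, 2.01 ± 0.14 in wrky40 and 1.88 ± 0.14 in wrky18.

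LSU2 ended higher as well, by 1.85 ± 0.18, 1.99 ± 0.19 and 1.63 ± 0.18 in wrky18 wrky40, wrky40 and wrky18. At 2 h it held 30, 45.3 and 42.2 CPM in wrky18 wrky40, 40.7, 28.5 and 22.4 CPM in wrky40 and 29, 31.6 and 25.8 CPM in wrky18, and these overlap. APR2 fell by 1.81 in wrky18 wrky40, 1.66 in wrky40 and 1.59 in wrky18, and rose again by 1.99, 2.00 and 1.97. None of the 3 was called between mutants. In the 34 tested genes of a sulphur list, 21, 22 and 23 were higher at 2 h than at 0 h in wrky18 wrky40, wrky40 and wrky18, and 7, 7 and 6 were lower, where 36.3%, 37.2% and 36.8% of all genes were higher and 36.2%, 36.1% and 36.5% lower. The list's median change over that time was 1.6, 1.54 and 1.48, against medians of all genes between -0.0231 and 0.000809.

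AT1G04770, which encodes a tetratricopeptide repeat protein, did not pass the test for a fall in wrky40 while it fell in both other mutants. It had 12.4, 12.5 and 11.8 CPM at 0 h and 12.8, 12.7 and 12.3 CPM at 1 h in wrky40, a change of 0.04 (adjusted p = 0.86). In wrky18 wrky40 it had 23, 25.2 and 20.9 CPM, then 10.4, 8.95 and 8.69 CPM, and in wrky18 14.4, 12.5 and 18.5 CPM, then 4.89, 8.29 and 5.86 CPM. All 3 genotypes reached 42.6 to 71.1 CPM at 2 h. The change at 1 h differed between wrky18 wrky40 and wrky40 by -1.336 ± 0.238 (adjusted p = 0.0218) and between wrky40 and wrky18 by 1.305 ± 0.248 (adjusted p = 0.0339). AT1G04770 shares 431 bases with AT1G04760 on the other strand.

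**Figure D3:**
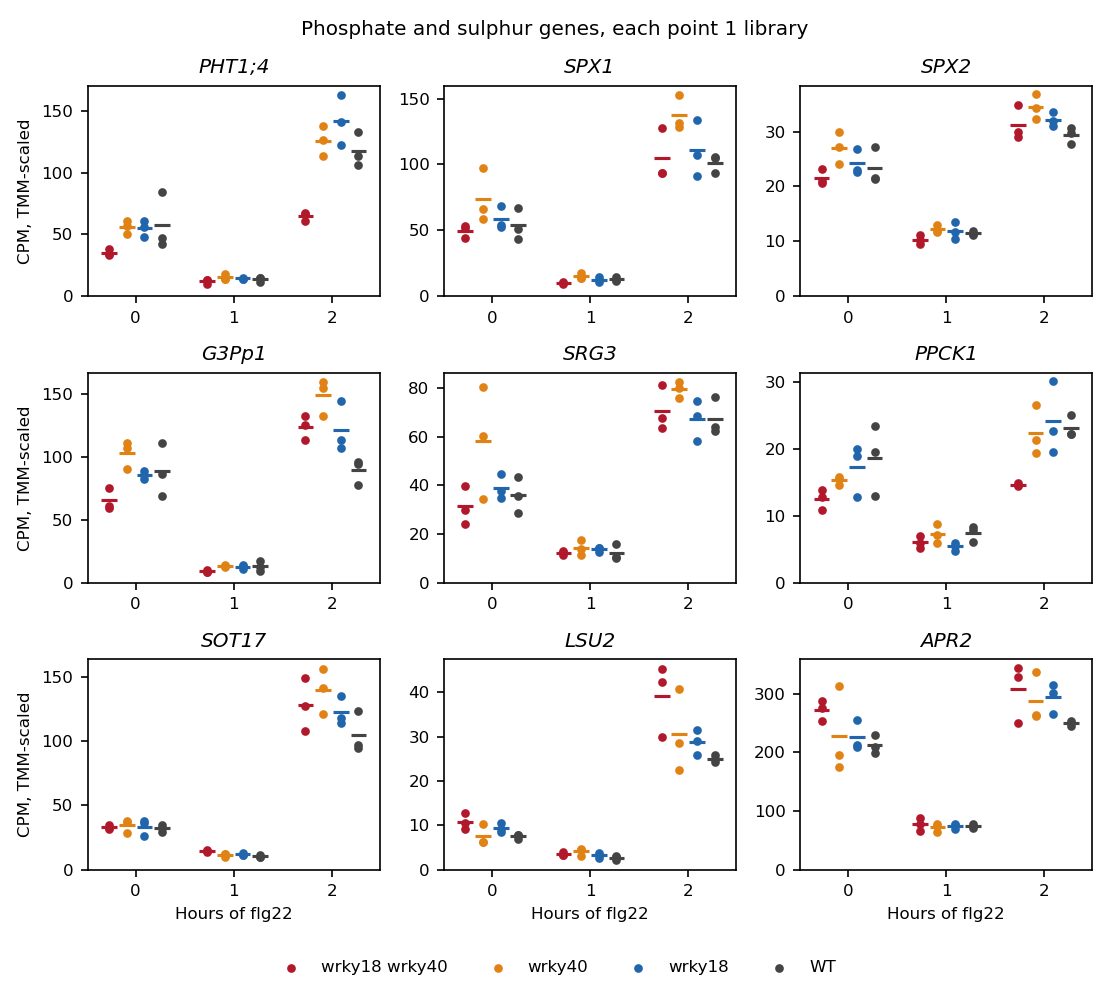
Levels of phosphate and sulphur genes among the members, in TMM-scaled CPM on linear axes that start at 0, by genotype and time, with 1 point per library and a bar at the mean of 3. PHT1;4 at 2 h lies at 61.3 to 67.5 CPM in wrky18 wrky40, below every library of wrky40 and wrky18 at that time.

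Heat shock and chaperone genes among the members separated the double mutant from both single mutants at 2 h. The 6 members are HSP90.1, the heat-inducible cytosolic HSP90, HSFA2, a heat shock transcription factor, HSP101, which pulls proteins out of aggregates, Hsp70-2, a cytosolic HSP70, Hop3, which links HSP70 to HSP90, and Fes1A, which protects HSP70. All 6 were lower in wrky18 wrky40 than in wrky40 and than in wrky18 at 2 h, by 1.05 to 1.60 log2 units against wrky40 and by 0.80 to 1.75 against wrky18. These 12 calls held under every alternative run, including without each of the 6 libraries compared. The rule kept these genes for their 2 h level in WT, so the shared direction is no independent result. The labels name no heat treatment and give no temperature.

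HSP90.1 (AT5G52640, chromosome 5, 21352557 to 21355147) had 55.2, 56.3 and 44.9 CPM at 0 h, 27.7, 16.4 and 33.1 CPM at 1 h and 56.8, 51.6 and 50.1 CPM at 2 h in wrky18 wrky40. In wrky40 it had 59.3, 49.6 and 33.8 CPM, then 25.3, 17.2 and 23 CPM, then 123, 179 and 166 CPM. In wrky18 it had 99.7, 51.1 and 54.9 CPM, then 37.8, 34.2 and 42.6 CPM, then 133, 94.8 and 148 CPM. At 2 h the double mutant was close to its untreated range, and both single mutants were above theirs in all but 1 wrky18 library. At 2 h the difference was -1.56 ± 0.24 against wrky40 (adjusted p = 0.00018) and -1.24 ± 0.24 against wrky18 (adjusted p = 0.00086). The fall in wrky18 rested on the first untreated library (adjusted p = 0.084 without it).

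HSFA2 (AT2G26150, chromosome 2, 11135624 to 11137792) had 2.07, 1.49 and 2.56 CPM at 1 h and 1.83, 2.59 and 2.18 CPM at 2 h in wrky18 wrky40. It had 2.64, 1.22 and 1.02 CPM, then 5.85, 8.93 and 5.37 CPM in wrky40, and 1.44, 1.07 and 3.05 CPM, then 8.11, 7.33 and 6.91 CPM in wrky18. The 2 h values of the double mutant did not overlap those of either single mutant. Its change between 1 h and 2 h was 0.10 ± 0.34 in wrky18 wrky40 (adjusted p = 0.83), and it rose by 2.03 in wrky40 and 1.97 in wrky18. Its promoter (chr2:11135374-11135623, plus strand) is shown because it holds a heat shock element of 3 units, with GAA, TTC and GAA each set 2 bases apart on either strand. That element was in 2 members, HSFA2 and BGLU10, or 1.41%, against 0.636% of the genes that stayed lower and 0.393% of all promoters. None of the other heat shock and chaperone members held it. The shorter pair GAANNTTC was in 9.15% of members, 8.38% of the genes that stayed lower and 9.47% of all promoters. The capitals mark the element of 3 units.
HSFA2: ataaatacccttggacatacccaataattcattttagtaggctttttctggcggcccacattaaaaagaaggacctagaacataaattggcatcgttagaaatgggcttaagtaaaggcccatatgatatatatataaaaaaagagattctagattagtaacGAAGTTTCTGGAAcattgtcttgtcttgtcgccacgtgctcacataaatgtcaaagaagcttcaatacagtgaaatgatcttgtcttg

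Hsp70-2 (AT5G02490, chromosome 5, 550035 to 552827) fell in all 3 mutants, and its rise by 2 h passed the test in wrky40 and wrky18. It had 26.8, 25.6 and 24.9 CPM at 1 h and 29.6, 25.1 and 28.7 CPM at 2 h in wrky18 wrky40. In wrky40 it had 24.7, 24.9 and 28.9 CPM, then 56.4, 86.4 and 68.7 CPM, and in wrky18 27.8, 32.7 and 28.9 CPM, then 56.2, 59.1 and 72.1 CPM. WT had 88.2, 57.1 and 61.6 CPM at 2 h. The change between 1 h and 2 h differed between wrky18 wrky40 and wrky40 by -1.321 ± 0.204 (adjusted p = 0.00172), in the test of the difference itself, and this call held without any of the 12 libraries compared. Against wrky18 the difference was -0.9571 ± 0.203 (adjusted p = 0.0144), lost without either of 2 libraries (adjusted p = 0.058).

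HSP101 had 12.1, 6.49 and 14.6 CPM at 1 h and 9.18, 12.1 and 9.07 CPM at 2 h in wrky18 wrky40, against 9.53, 5.85 and 6.5 CPM, then a mean of 24.9 ± 5.96 CPM in wrky40 (SD, n = 3), where the lowest library stood above each double mutant library. Its change at 1 h was -0.57 in wrky18 wrky40 (adjusted p = 0.058) and -0.40 in wrky18 (adjusted p = 0.19), so the dip was called in wrky40 alone of the 3, at -1.10. Hop3 had 8.91, 8.64 and 10.2 CPM at 2 h in wrky18 wrky40, 17.6, 24.7 and 18.9 CPM in wrky40 and 18.6, 15.5 and 19.7 CPM in wrky18. The double mutant lay below both single mutants, which overlap each other. Fes1A rose between 1 h and 2 h in all 3, by 0.93 ± 0.15, 1.94 ± 0.15 and 1.39 ± 0.15 in wrky18 wrky40, wrky40 and wrky18. HSP70 and HSP90 genes have close copies in the genome, and how reads that match several copies were counted is not given in the sources used here.

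The wider heat shock list moved the same way in part. Of its 41 tested genes, 8 were lower and 3 higher in wrky18 wrky40 than in wrky18 at 2 h, where 3.37% of all genes were lower and 3.11% higher. Against wrky40 9 were lower and none higher, where 2.08% and 1.18% of all genes were. The medians over the 41 were -0.201 and -0.0625. Of 12 tested cytosolic HSP70 and co-chaperone genes, 5 were lower against wrky18 and 6 against wrky40, and none higher. The 41 include the members HSP90.1, HSFA2 and HSP101, and the 12 include Fes1A, Hsp70-2 and Hop3. These members are among the genes counted as lower in both comparisons. The rule kept them for their 2 h level in WT, so the list counts are in part the same genes counted again. Between 1 h and 2 h 2 of the 12 rose and 4 fell in wrky18 wrky40, 8 and 3 in wrky40, and 6 and 3 in wrky18, where 24.8%, 27.1% and 28.7% of all genes rose and 23.0%, 24.9% and 25.8% fell. 

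**Figure D4:**
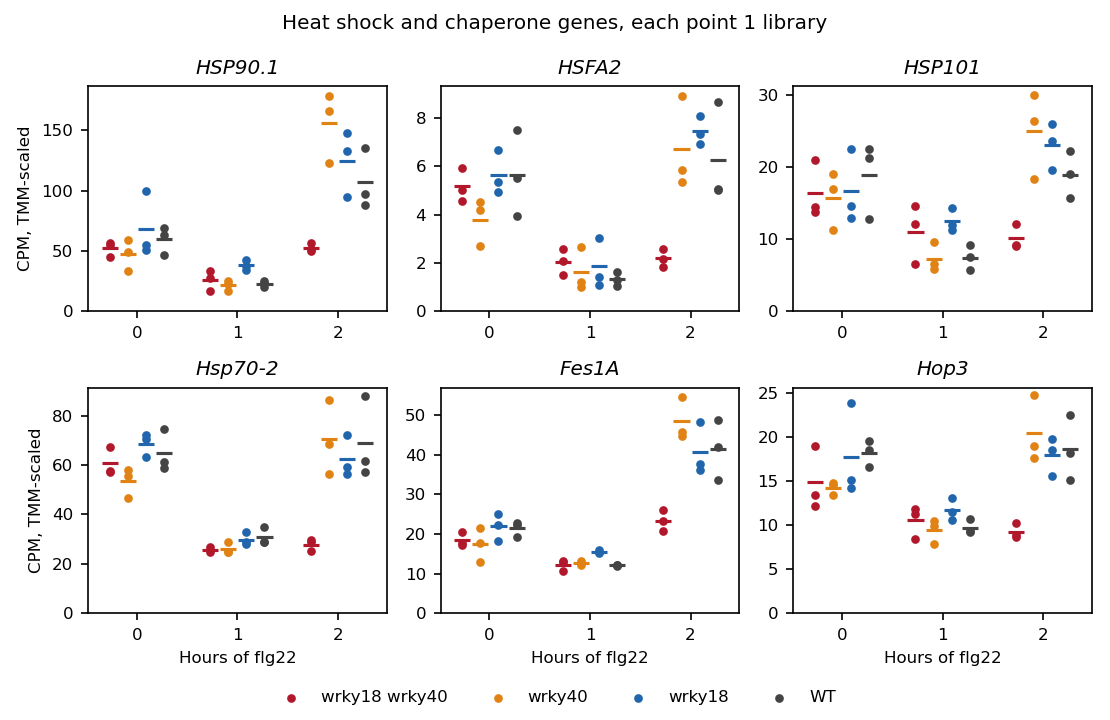
Levels of the 6 heat shock and chaperone genes, in TMM-scaled CPM on linear axes that start at 0, at 0, 1 and 2 h in the 4 genotypes, with 1 point per library and a bar at the mean of 3. At 2 h the wrky18 wrky40 points lie below those of both single mutants in each panel, for example 25.1 to 29.6 CPM against 56.2 to 86.4 CPM for Hsp70-2.

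Over all 143 genes, the double mutant differed from the single mutants mainly at 2 h and mainly downward. Against wrky40, 22 were lower and none higher at 2 h, where 2.08% of all genes were lower and 1.18% higher. Against wrky18, 36 were lower and 5 higher, where 3.37% and 3.11% of all genes were. The median differences were -0.134 against wrky40 and -0.146 against wrky18, beside -0.00756 and -0.00839 over all genes. The 1750 genes that stayed lower in WT had medians of -0.165 and -0.184, with 7.66% and 11.5% called lower. Each of the 22 and the 36 was lower within all 3 replicate sets. The calls rest on the same libraries, so this adds no separate support. The 2 comparisons share the double mutant libraries, and 20 genes were lower in both.

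The count against wrky40 at 2 h depended on single libraries. It was 14, 11 and 14 without the first, second or the third wrky18 wrky40 library and 11 without the second or the third wrky40 library. Against wrky18, calls in either direction numbered 41 with all libraries and 28 to 38 when 1 library was left out. In 41 genes, 28.7%, all 3 double mutant libraries lay below all 6 single mutant libraries at 2 h, against 6.74% of all genes. In 6 genes, 4.2%, they lay above, against 5.97%. The genes were chosen for their return in WT, so the direction of these counts is no independent result. When the same thresholds were set on the double mutant, a choice that favours high 2 h values there by construction, 102 genes met them, of which 37 were not among the 143. Among the 102, 3 were higher and 7 lower than in wrky40 at 2 h, and 8 higher and 10 lower than in wrky18. The 37 outside the 143 had 3 higher and 2 lower against wrky40, and 5 higher and 1 lower against wrky18. The other 65 are members, with 0 higher and 5 lower against wrky40, and 3 higher and 9 lower against wrky18. Of all genes 1.18% were higher and 2.08% lower against wrky40, and 3.11% and 3.37% against wrky18.

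**Figure D5:**
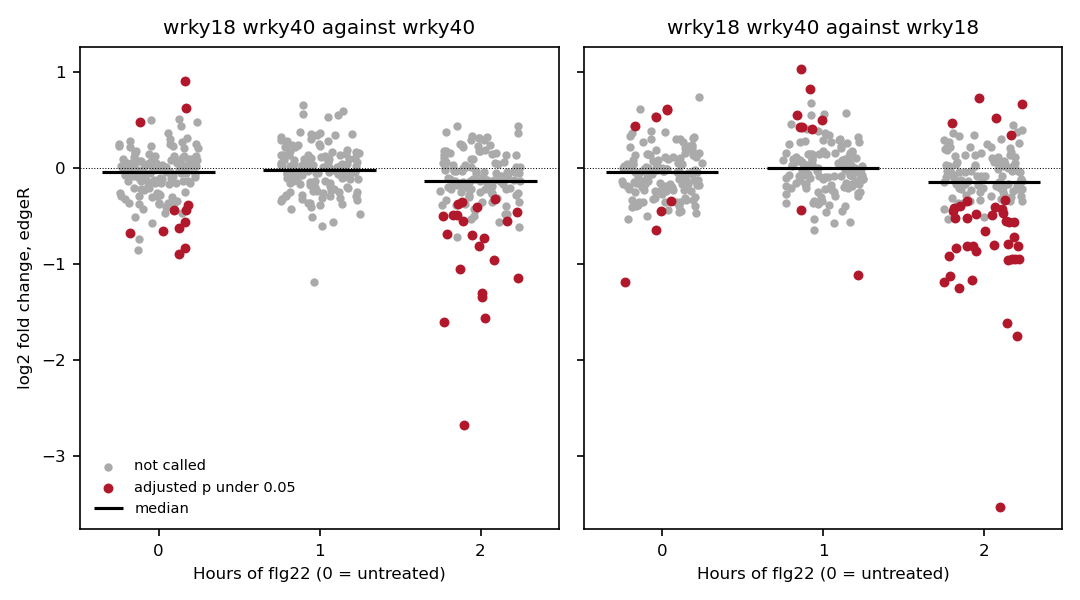
Differences of wrky18 wrky40 minus wrky40 (left) and minus wrky18 (right) for the 143 genes at 0, 1 and 2 h, in log2 units, with 1 point per gene, called genes in red and a black bar at the median. At 2 h the medians are -0.134 and -0.146, and 22 and 36 genes are called lower.

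At the other times fewer genes were called. At 0 h 3 were higher and 9 lower in wrky18 wrky40 than in wrky40, where 0.632% and 0.89% of all genes were. Against wrky18 4 were higher and 4 lower, where 1.01% and 0.454% were, and the replicate block raised these 8 calls to 16. The 0 h counts were also set by single libraries. They ranged from 4 to 17 against wrky40, with 6, 4 and 5 without the first, second or the third wrky18 wrky40 library, 5 without the second wrky40 library and 17 at the highest. Against wrky18 they ranged from 0 to 21, with 1, 0 and 21 without the first, second or the third wrky18 library and 0 without the second or the third wrky18 wrky40 library. At 1 h none was called against wrky40 by edgeR, where 0.0796% of all genes were higher and 0.0328% lower. There 32 had an unadjusted p under 0.05, and DESeq2 called 1. Against wrky18 7 were higher and 2 lower at 1 h, where 4.39% and 1.49% of all genes were, and these 9 were 4 without the first wrky18 library and 5 without the second wrky18 wrky40 library.

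Few of these genes were called between the single mutants, with 1, 2 and 1 at 0, 1 and 2 h, or 2, 4 and 2 with the replicate block. At 0 h 1 was higher in wrky40 than in wrky18, ACR5, where 0.0562% of all genes were higher and 0.00468% lower. At 1 h AT1G04770 and AT5G01210 were higher, where 1.03% were and 0.323% were lower. At 2 h RD22 was lower, where 0.29% were and 0.595% were higher. The count at 0 h was 4 without the first wrky40 library, 2 without the third wrky18 library, and 0 without the first wrky18 or the second or the third wrky40 library. At 1 h it was 0 without the first wrky18 library and 1 without the second wrky18 or the second or the third wrky40 library. At 2 h it was 0 without the third wrky18 or the first wrky40 library. Against WT, given as values only, the median difference at 2 h was -0.124 in wrky18 wrky40, -0.0178 in wrky40 and 0.0398 in wrky18. At 1 h it was 0.106, 0.105 and 0.0545.

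Tests of the change itself named fewer genes than tests at 2 h. The change between 1 h and 2 h was smaller in wrky18 wrky40 than in wrky18 for 11 genes and larger for 2, where 0.693% and 0.253% of all genes were, with a median difference of -0.224. With the replicate block these 13 calls became 22. It was smaller than in wrky40 for 6 and larger for none, where 0.0796% and 0.0% of all genes were, with a median of -0.122. At 1 h against 0 h, the change differed between wrky18 wrky40 and wrky40 in 1 gene, AT1G04770, on the lower side, where 0.00937% of all genes were higher and 0.014% lower. Between wrky18 wrky40 and wrky18 none was called by edgeR, where 0.342% were in either direction. There 22 had an unadjusted p under 0.05, and DESeq2 called 4. With the replicate block edgeR called 4 as well. Between wrky40 and wrky18, AT1G04770 was the 1 gene called at 1 h, on the higher side, where 0.0609% of all genes were higher and 0.0234% lower, and the 1 gene from 1 h to 2 h, on the lower side, where 0.0281% were higher and 0.014% lower. The 13 calls against wrky18 were 8 without the first or the second wrky18 library at 1 h, 6 and 4 without the first or the third wrky18 library at 2 h, and 7 without the first or the third wrky18 wrky40 library at 1 h or the second or the third at 2 h. The 6 calls against wrky40 were 1 to 3 without the first or the third wrky18 wrky40 library at 1 h, any wrky18 wrky40 library at 2 h, or the second or the third wrky40 library at either time. The genes whose call held without each library in turn were AT5G01210, RD22 and AT1G29090 against wrky18, and Hsp70-2 against wrky40.

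AT1G29090, the cysteine proteinase gene, had the largest difference of all. At 2 h it held 0.387, 0.773 and 0.452 CPM in wrky18 wrky40, 2.56, 3.47 and 4.3 CPM in wrky40, 6.85, 4.54 and 7.47 CPM in wrky18 and 6.85, 5.78 and 6.13 CPM in WT. The wrky40 values lay below those of wrky18, a difference that was not called. The double mutant lay below both single mutants. It was below both single mutants at 0 h and 1 h too, at 2 to 2.35 CPM and 1.51 to 2.23 CPM, against 2.78 to 5.1 and 3.03 to 5.12 CPM in wrky40 and 4.57 to 5.43 and 3.07 to 4.35 CPM in wrky18. These earlier differences passed the test against wrky18 alone, and were lost without 3 of the 6 libraries at 0 h (adjusted p up to 0.11) and 2 of the 6 at 1 h (adjusted p up to 0.082). The difference was -2.67 ± 0.35 against wrky40 (adjusted p = 2.7e-05) and -3.53 ± 0.34 against wrky18 (adjusted p = 2.1e-08). Between 1 h and 2 h it fell by 1.72 ± 0.38 in wrky18 wrky40 (adjusted p = 0.00035), the single member to fall over that hour.

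Other members lower in the double mutant at 2 h have varied roles. RD22, a dehydration-responsive gene, held 101, 100 and 98.6 CPM in wrky18 wrky40, 96.8, 124 and 127 CPM in wrky40 and 170, 170 and 185 CPM in wrky18. Only the wrky18 values stood apart, and the difference of wrky18 wrky40 from wrky18 was -0.81 ± 0.13 (adjusted p = 7.1e-05). The lower value of wrky40 than wrky18, -0.59 ± 0.13 (adjusted p = 0.013), was lost without the third wrky18 library (adjusted p = 0.11) or the first wrky40 library (adjusted p = 0.1).

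AIG1, a GTPase gene induced by a bacterial effector, held 8.46, 5.05 and 6.06 CPM at 2 h in wrky18 wrky40 and 24.2, 14.3 and 20.7 CPM in wrky18, with a difference of -1.61 ± 0.28 (adjusted p = 0.00027). It was not called against wrky40. On plain CPM its 2 h means were 5.86, 9.91, 18.3 and 13.6 in wrky18 wrky40, wrky40, wrky18 and WT, so wrky18 was the highest. CER3, of cuticular wax synthesis, held 89.6, 87.1 and 92.6 CPM in wrky18 wrky40 and 125, 124 and 124 CPM in wrky18, apart from each other by -0.47 ± 0.08 (adjusted p = 0.00028). CER3 was not called against wrky40 either. PPC1, a phosphoenolpyruvate carboxylase, held 171, 161 and 167 CPM in wrky18 wrky40, 201, 211 and 235 CPM in wrky40 and 200, 202 and 225 CPM in wrky18. PPC1 was lower in the double mutant by 0.38 and 0.33 log2 units, and its kinase gene PPCK1 was lower than in wrky18 by 0.72 ± 0.18 (adjusted p = 0.011).

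AT5G01210, an acyltransferase family gene, had 84.1, 94.3 and 81.7 CPM at 1 h and 162, 180 and 185 CPM at 2 h in wrky18 wrky40, and 53.1, 60.4 and 63.9 CPM, then 215, 203 and 212 CPM in wrky18. The double mutant was thus above wrky18 at 1 h and below it at 2 h, and its change over that hour differed by -0.8043 log2 units (SE 0.147, adjusted p = 0.00325). It shares 1785 bases with AT5G01215 on the other strand. Besides PHT1;4, the transporter genes OPT6 and ABCG19 were in the group lower than both single mutants. Their 2 h levels in the double mutant were 27.2 to 32.1 CPM and 13 to 13.8 CPM. In wrky40 these were 51.3 to 54.4 and 20.3 to 23.7 CPM, and in wrky18 45.8 to 59.1 and 24.1 to 27.7 CPM.

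The 5 members higher in wrky18 wrky40 than in wrky18 at 2 h were LBD37, a repressor of nitrate-responsive genes, MKK9, a MAP kinase kinase, AT1G21000, a PLATZ transcription factor, AT3G05400, a transporter family gene, and AT3G15760. LBD37 held 139, 150 and 151 CPM in wrky18 wrky40, 120, 113 and 125 CPM in wrky40 and 115, 116 and 114 CPM in wrky18. The double mutant was above both, by 0.35 ± 0.10 against wrky18 (adjusted p = 0.022), a call lost without any of 5 libraries. AT1G21000 held 46.7, 48.1 and 45.4 CPM, 37.4, 40.5 and 41 CPM, and 31.9, 34 and 31.8 CPM in wrky18 wrky40, wrky40 and wrky18. Those 3 groups did not overlap, and the difference from wrky18 was 0.52 ± 0.10 (adjusted p = 0.00068).

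Jasmonate genes among the members were TIFY7, a JAZ repressor of the pathway, COI1, the jasmonate receptor, and ORA59, an ERF factor that joins jasmonate and ethylene signals. COI1 fell by 0.86 in wrky18 wrky40, 0.93 in wrky40 and 0.97 in wrky18, and rose again by 0.64, 0.88 and 1.01. TIFY7 rose by 2.21 ± 0.13 between 1 h and 2 h in wrky18 wrky40, 1.65 ± 0.13 in wrky40 and 1.44 ± 0.13 in wrky18. At 2 h it held 96.4, 84.3 and 89 CPM, 82.1, 80.4 and 75.7 CPM, and 68.9, 72.3 and 72 CPM in the same order, with no overlap. Its level at 2 h was not called between mutants, and its change was larger in wrky18 wrky40 than in wrky18 by 0.7698 (SE 0.18, adjusted p = 0.0297).

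ORA59 had a shallow dip in the double mutant, at 6.71, 7.37 and 6.33 CPM at 0 h and 4.78, 5.2 and 4.73 CPM at 1 h. In wrky18 it had 10.5, 6.46 and 5.97 CPM, then 2.35, 1.94 and 2.81 CPM. At 1 h the double mutant was above wrky18 by 1.03 ± 0.23 (adjusted p = 0.0052) with no overlap, and at 2 h both held 24.1 to 27.7 CPM. The fall in wrky18 wrky40, 0.48 log2 units (adjusted p = 0.034), was lost without any of 5 libraries. In the 29 tested genes of a jasmonate list, 19, 18 and 15 rose between 1 h and 2 h in wrky18 wrky40, wrky40 and wrky18, and 3, 3 and 5 fell, where 24.8%, 27.1% and 28.7% of all genes rose and 23.0%, 24.9% and 25.8% fell. At 1 h 6 of the 29 were lower in wrky18 wrky40 than in wrky18 and ORA59 was the 1 higher, where 1.49% and 4.39% of all genes were. None of the 29 was called against wrky40 at 1 h or against either single mutant at 2 h.

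Among abscisic acid signalling genes, ABI2 and HAB1, clade A phosphatases that hold the signal off, and PYL1 and PYL7, receptors that inhibit such phosphatases, fell and rose in all 3 mutants. ABI2 held 5.63, 4.24 and 4.63 CPM, then 1.9, 2.1 and 2.23 CPM, then 11.1, 12.7 and 13.1 CPM in wrky18 wrky40, with the times apart. It rose by 2.57, 2.68 and 2.78 between 1 h and 2 h in wrky18 wrky40, wrky40 and wrky18. PYL1 fell by 0.86, 1.03 and 1.11. In the list of 9 tested receptor genes 7, 5 and 6 fell at 1 h in wrky18 wrky40, wrky40 and wrky18, and 0, 1 and 0 rose. Of all genes 32.7%, 32.2% and 32.0% fell at 1 h and 30.1%, 29.9% and 28.3% rose. Between 1 h and 2 h 2, 4 and 5 of the 9 rose and 1, 3 and 2 fell, where 24.8%, 27.1% and 28.7% of all genes rose and 23.0%, 24.9% and 25.8% fell. Of 7 tested clade A phosphatase genes 3, 3 and 3 fell at 1 h and 3, 3 and 2 rose, beside the shares of all genes just given for 1 h. PYL7 shares 571 bases with AT4G01030 on the other strand.

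Transcription factors outside these pathways included RAP2.6 and RAP2.4 of the ERF family, NAC047 and NAC089, and the homeodomain genes HB5 and HB52. RAP2.6 ended above its untreated level by 1.39 ± 0.25 in wrky18 wrky40, 1.27 ± 0.25 in wrky40 and 1.42 ± 0.26 in wrky18. RAP2.4 did not pass the test for a return in the double mutant, with 0.23 (adjusted p = 0.31). HB52 held 5.59, 6.14 and 4.18 CPM at 2 h in wrky18 wrky40 against 10.3, 7.5 and 11 CPM in wrky18, with no overlap and a difference of -0.86 ± 0.21 (adjusted p = 0.0078). Against wrky40 HB52 was not called at 2 h. AT1G10585, a bHLH gene, had the largest rise of all members. It held 2.79, 2.7 and 2.46 CPM at 1 h and 87.2, 67.4 and 67.3 CPM at 2 h in wrky18 wrky40, a rise of 4.79 ± 0.34, beside 4.57 ± 0.35 in wrky40 and 4.12 ± 0.34 in wrky18. It shares 65 bases with AT1G10580 on the same strand.

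Several metabolic genes with many counts were not called between the mutants. FAH1, of sinapate and syringyl lignin synthesis, ended above its untreated level by 1.12, 1.27 and 1.45 in wrky18 wrky40, wrky40 and wrky18. GSTU5, a glutathione transferase, ended higher by 0.53, 0.51 and 0.37, of which the wrky18 call was lost without the second or the third library at 0 h or at 2 h (adjusted p up to 0.14) and the wrky40 call without the third library at 0 h (adjusted p = 0.051). SHM4, a serine hydroxymethyltransferase, held 310, 234 and 315 CPM at 2 h in wrky18 wrky40 and 395, 326 and 437 CPM in wrky18, which do not overlap, yet the difference did not pass the test. The second replicate was the lowest in both. CB5-C, a cytochrome b5 isoform, rose by 2.39, 2.61 and 2.01 between 1 h and 2 h. The glucosyltransferase UGT76E11 rose by 2.58, 2.14 and 2.20, but lies over AT3G46668 for 1809 bases on the other strand.

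In structure the members resembled the genes that stayed lower. Their median gene length was 2218 bases with a median of 3 exons, against 2300 bases and 3 exons for the genes that stayed lower and 2373 bases and 4 exons for all tested genes. Genes of 1 exon made up 26.1% of the members, 25.1% of the genes that stayed lower and 16.4% of all tested genes. Chromosomes 1 to 5 held 41, 20, 24, 21 and 37 members.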

How the data were processed

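RNA was measured in 36 libraries of whole seedlings, in 12 groups of 3. The authors deposited 1 table of raw counts per gene. Per the submitters' processing notes, the tools were FastQC 0.11.2, TopHat2 2.0.10 and HTSeq on TAIR10. The version and strand setting of HTSeq are not given in the sources used here, and libraries were stranded per the labels' protocols. Deposited column totals ran between 17287229 and 38709715 counts. Of 32678 gene identifiers, 31912 matched the RefSeq annotation of TAIR10.1, which gave names, coordinates and promoters. The deposited table holds no coordinates.

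Genes were filtered by edgeR 4.0.16 (filterByExpr over the 12 groups; 21356 kept, and 6155 had no count), scaled by TMM and fitted together in 1 quasi-likelihood model in R 4.3.3, with 24 residual degrees of freedom and a biological coefficient of variation of 10.7%. The 24 comparisons were 9 between times within a mutant, 9 between mutants and 6 of the difference in change, each adjusted by the Benjamini-Hochberg method over all tested genes. Scripts were tested on simulated data first. Alternatives were DESeq2 1.42.0, relative log expression (RLE) scaling, no filter, a replicate block, and leaving out each library. Other work used Python 3.11.15 with pandas 2.3.3, numpy 2.4.6 and matplotlib 3.10.9.

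The members and the gene lists were chosen with earlier results of these data known, so nothing here is adjusted over a list alone. Genes named are WRKY18, WRKY40 and WRKY60, the 12 members with the highest WT recovery, the 10 with the largest called change between mutants, the 10 with the highest mean CPM in the mutants, up to 4 members of each list with at least 2, members with no called fall, and the 3 genes on either side of each threshold, of which not all are described. Other genes were named after their values were seen. Per the series' design text, each replicate is a set of 12 samples, so the numbers pair libraries. Deviations from group means correlated with a mean r of 0.137 between libraries of 1 number and -0.0684 otherwise, and 35 of 36 libraries were closest to their own number. Whether the replicates were separate cultures is not stated beyond being biological, and p-values measure the spread between these samples.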

Additional observations from a re-analysis of the deposited data

Results flagged for a closer look

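The tests of a difference in change between 2 mutants passed for 22 results in 18 genes, given here as log2 differences with SE and edgeR adjusted p. Groups have 3 libraries each, so single libraries were not tested as outliers.

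For the change from 0 h to 1 h, AT1G04770 differed between wrky18 wrky40 and wrky40 by -1.336 (SE 0.238, adjusted p = 0.0218) and between wrky40 and wrky18 by 1.305 (SE 0.248, adjusted p = 0.0339). For the change from 1 h to 2 h, the same gene differed between wrky40 and wrky18 by -1.209 (SE 0.24, adjusted p = 0.0456).

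Between wrky18 wrky40 and wrky40, 6 members changed less from 1 h to 2 h in the double mutant. The heat shock and chaperone genes differed by -1.798 for HSP90.1 (SE 0.343, adjusted p = 0.0331), -1.9 for HSP101 (SE 0.385, adjusted p = 0.0461), -1.321 for Hsp70-2 (SE 0.204, adjusted p = 0.00172), -1.309 for Hop3 (SE 0.261, adjusted p = 0.0447) and -1.008 for Fes1A (SE 0.21, adjusted p = 0.0484). The oligopeptide transporter gene OPT6 differed by -0.822 (SE 0.17, adjusted p = 0.0484).

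Between wrky18 wrky40 and wrky18, 11 members changed less from 1 h to 2 h in the double mutant. The heat genes were HSFA2 at -1.864 (SE 0.468, adjusted p = 0.0449) and Hsp70-2 at -0.9571 (SE 0.203, adjusted p = 0.0144). The transporters were ABCG19 at -0.7502 (SE 0.166, adjusted p = 0.0207) and OPT6 at -0.6777 (SE 0.169, adjusted p = 0.044). AT1G29090 stood at -2.415 (SE 0.455, adjusted p = 0.00478), RD22 at -0.9019 (SE 0.18, adjusted p = 0.00867) and AT5G01210 at -0.8043 (SE 0.147, adjusted p = 0.00325). The homeodomain gene HB52 stood at -1.328 (SE 0.306, adjusted p = 0.0276), the ankyrin repeat gene AT2G01680 at -0.6844 (SE 0.148, adjusted p = 0.0167), the NBS-LRR gene AT5G40060 at -0.7031 (SE 0.167, adjusted p = 0.0327) and AT4G23490 at -0.8306 (SE 0.192, adjusted p = 0.0283).

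In the other direction, TIFY7 changed more in wrky18 wrky40 than in wrky18 by 0.7698 (SE 0.18, adjusted p = 0.0297), and AT1G21000 by 0.5546 (SE 0.141, adjusted p = 0.0485). Of the 22 calls, 18 were lost without at least 1 library and 7 with RLE scaling, while none was lost with DESeq2, the replicate block or no filter.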

How the results depend on the processing

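No alternative reversed a direction among 514 single gene results and 5272 recomputed values, of which 463 lost their call, and the cause was not tested. The replicate block, which the design text supports, ended none of these calls. It moved counts of members called to 16 from 8 for wrky18 wrky40 against wrky18 at 0 h, to 2, 4 and 2 for wrky40 against wrky18 at 0, 1 and 2 h (1, 2 and 1 without it), and to 4 and 22 for the difference between wrky18 wrky40 and wrky18 in the change at 1 h and from 1 h to 2 h (0 and 13 without it). DESeq2 gave 13 for wrky18 wrky40 against wrky18 at 0 h, 1 for wrky18 wrky40 against wrky40 at 1 h, 2 and 3 for wrky40 against wrky18 at 0 h and 2 h, and 4 for the difference between wrky18 wrky40 and wrky18 at 1 h, where no filter gave 1. RLE scaling gave 2 for the difference between wrky18 wrky40 and wrky40 from 1 h to 2 h and 0 for that between wrky40 and wrky18.

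The choice of members depended on scaling. With TMM-scaled CPM 103 genes met the rule, 60 of them among the 143. Among these 60, an alternative chosen after seeing the data, 58 were called at 1 h against 0 h and 54 at 2 h against 1 h in wrky18 wrky40, and at 2 h 16 were called against wrky18 and 12 against wrky40. With TMM-scaled CPM 36 members met the thresholds in wrky18 wrky40, 51 in wrky40 and 53 in wrky18. A pseudocount of 0.5 gave 150 genes, a minimum of 10 gave 116, and leaving out a WT library gave 132 to 150.

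Leaving out 1 library gave these ranges of calls. For 1 h against 0 h they were 133 to 139, 137 to 141 and 135 to 138 in wrky18 wrky40, wrky40 and wrky18, for 2 h against 1 h 117 to 120, 131 to 139 and 139 to 143, and for 2 h against 0 h 80 to 84, 65 to 82 and 62 to 72. At 0, 1 and 2 h they were 4 to 17, 0 to 0 and 11 to 23 for wrky18 wrky40 against wrky40, 0 to 21, 4 to 9 and 28 to 38 against wrky18, and 0 to 4, 0 to 3 and 0 to 1 for wrky40 against wrky18. For differences in change at 1 h and from 1 h to 2 h they were 0 to 1 and 1 to 6, 0 to 2 and 4 to 11, and 0 to 3 and 0 to 1 in the same order. Thresholds were met by 59 to 68, 73 to 85 and 78 to 94 members. The ranges of calls count both directions. Some lie wholly below the count with all libraries, which was 41 for wrky18 wrky40 against wrky18 at 2 h. Low-count genes such as HSFA2 and AT1G29090 carry the widest errors at these depths.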
